A study of Mus musculus with 16 samples.

Results

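Dimethylated lysine 4 of histone H3 (H3K4me2) was compared between mTEC-IV and mTEC-III, a pair of medullary thymic epithelial cell (mTEC) populations sorted from the thymus of C57BL/6 mice. Both populations were gated as Epcam-positive cells lacking CD45, the surface marker of blood cells. The mTEC-IV gate further asked for L1cam, an adhesion molecule, for the absence of integrin beta 4 (Itgb4) and for low MHC class II. The mTEC-III gate further asked for Ly6D, a surface protein of the Ly6 family, and names no level of MHC class II. No mutant allele, transgene or treatment is named for either population, and the labels give neither the age of the mice nor the number of mice behind a library. Whether the paired libraries of a population stem from separate animals is not stated. Every p-value below thus measures spread between libraries of a population, which may be technical. With limma that spread came from all 8 H3K4me2 libraries of the series, mTEC-II and mTEC-I included, unless stated otherwise. Each population had 2 H3K4me2 libraries, which makes 4 of the 16 samples of the series. All merged peaks outside the mitochondrial genome were taken, 29470 of 29472, together with the 15739 genes to whose start site a peak was nearest.

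H3K4me2 lies at active and poised promoters and enhancers, so its level marks regulatory DNA in use or held ready and is not an amount of RNA. Tuft cells are chemosensory epithelial cells that need the transcription factor Pou2f3. They sense ligands through the taste cascade, in which receptors act on the G protein gustducin, phospholipase C beta 2 releases calcium and the channel Trpm5 opens, and they answer by releasing interleukin 25, eicosanoids and acetylcholine. In the thymic medulla, tuft cells coexist with cells that have passed the Aire stage and take on the programme of the outer epidermis. In that programme keratins change, desmosomes are rebuilt, transglutaminases link involucrin and other proteins into a cornified envelope, and secreted lipids and proteases seal the barrier.

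Textbooks describe binding motifs for factor families that act in each programme. Promoters of members whose mark differed are printed here with matches to such motifs. Whether the motifs bear on the mark was not tested. The octamer ATGCAAAT is the classical binding motif of POU-domain factors, the family of Pou2f3, and TGANTCA is that of AP-1 factors, which act in the epidermis. The letters below are the 250 bases before the start site of each gene, 5′ to 3′ on the strand of the gene, from RefSeq on GRCm38.p6, with the motif in capitals on whichever strand it lies. The first 3 genes had higher H3K4me2 in mTEC-IV and hold an octamer, and the others had lower H3K4me2 in mTEC-IV and hold an AP-1 motif; the Sucnr1 promoter holds an AP-1 motif as well, left in lower case. No peak spanned the start site of Krtdap, while the other printed genes had such a peak. The motifs and genes were chosen after the values were seen.
Tas2r108, chr6:40493342-40493591, plus strand: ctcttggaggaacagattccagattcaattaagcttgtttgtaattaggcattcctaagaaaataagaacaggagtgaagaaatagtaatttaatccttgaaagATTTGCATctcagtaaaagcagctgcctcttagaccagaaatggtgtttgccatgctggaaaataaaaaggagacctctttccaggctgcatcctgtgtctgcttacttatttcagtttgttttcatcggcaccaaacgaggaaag
Tas2r118, chr6:23970061-23970310, minus strand: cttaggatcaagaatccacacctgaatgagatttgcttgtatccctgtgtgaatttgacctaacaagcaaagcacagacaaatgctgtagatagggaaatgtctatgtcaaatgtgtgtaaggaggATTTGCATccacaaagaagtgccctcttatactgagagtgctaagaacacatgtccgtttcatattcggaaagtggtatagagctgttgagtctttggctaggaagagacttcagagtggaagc
Sucnr1, chr3:60081619-60081868, plus strand: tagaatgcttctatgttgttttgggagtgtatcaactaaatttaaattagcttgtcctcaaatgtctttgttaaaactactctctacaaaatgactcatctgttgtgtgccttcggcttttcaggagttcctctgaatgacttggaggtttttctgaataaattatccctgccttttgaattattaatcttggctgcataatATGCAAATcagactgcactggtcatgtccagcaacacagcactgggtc
Ivl, chr3:92573736-92573985, minus strand: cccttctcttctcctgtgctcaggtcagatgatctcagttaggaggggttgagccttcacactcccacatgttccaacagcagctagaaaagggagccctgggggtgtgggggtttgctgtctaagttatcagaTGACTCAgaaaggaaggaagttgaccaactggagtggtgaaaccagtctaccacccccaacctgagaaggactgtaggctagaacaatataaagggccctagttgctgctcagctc
Krtdap, chr7:30787655-30787904, plus strand: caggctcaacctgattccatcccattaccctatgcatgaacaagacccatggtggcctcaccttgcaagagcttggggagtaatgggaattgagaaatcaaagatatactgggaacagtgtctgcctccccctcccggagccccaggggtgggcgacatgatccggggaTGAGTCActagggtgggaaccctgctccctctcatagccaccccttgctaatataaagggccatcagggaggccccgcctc
Dmkn, chr7:30763506-30763755, plus strand: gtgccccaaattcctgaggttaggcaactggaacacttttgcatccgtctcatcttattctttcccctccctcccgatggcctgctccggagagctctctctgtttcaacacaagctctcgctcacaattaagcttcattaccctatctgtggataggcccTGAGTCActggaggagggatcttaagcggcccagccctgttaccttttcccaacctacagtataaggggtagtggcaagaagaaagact

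Over all 27025 promoters of the RefSeq table, 1.61% hold the octamer and 6.87% the AP-1 motif, counting both strands. Over the 11524 of these that belong to tested genes, the shares were 1.31% and 5.05%. The octamer stood in 8 of 58 promoters of tuft genes called higher in mTEC-IV, and the AP-1 motif in 6 of 27 promoters of cornified genes called lower. The 8 include Tas2r108, Tas2r118, Tas2r126 and Tas2r137, bitter receptors of a single family, so they are not 8 independent cases. The AP-1 motif stood in 4 of the 58 tuft promoters, and the octamer in 0 of the 27 cornified promoters. Among promoters of all genes lower in mTEC-IV by more than 1 on the log2 scale, 56 of 340 (16.5%) held the AP-1 motif and 4 the octamer. Among those of all genes higher by more than 1, 20 of 778 (2.57%) held the octamer and 58 the AP-1 motif. A comparison of these shares is void as a test, because the motifs and genes were chosen after the values were seen. The shares are also partial: only 77.3% of the tuft genes, 69.2% of the cornified genes and 73.2% of all tested genes had a promoter in the table. A match is a description of the letters and not a binding site.

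Across the genome, H3K4me2 was higher in mTEC-IV at 6478 of 29469 tested peaks (22%) and lower at 3926 (13.3%), with limma on log2(value + 1) and a Benjamini-Hochberg adjusted p under 0.05. Per gene, with the values of all peaks nearest its start site summed, 3269 of 15738 tested genes were higher in mTEC-IV (20.8%) and 2009 lower (12.8%). Values are tags per 10000000 tags of a library and are called levels below. The libraries held 9093698 and 8369277 tags in mTEC-IV, against 7926038.5 and 8492028 in mTEC-III, and 34.9% and 35.4% of these lay in peaks in mTEC-IV, against 32.2% and 34.3% in mTEC-III. With libraries scaled to equal totals in peaks, 2845 genes were higher and 3028 lower, so 48.4% of called genes were higher in place of 61.9%. With cyclic loess scaling, 4247 peaks were higher and 5073 lower, or 45.6% in place of 62.3%. When a single library was left out, the peak counts were 3430 to 4998 higher and 2179 to 2581 lower, and the gene counts 2081 to 2868 higher and 1161 to 1450 lower; each of the 4 libraries moved at least 1 of these counts by more than 1.5 times.

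**Figure D1:**
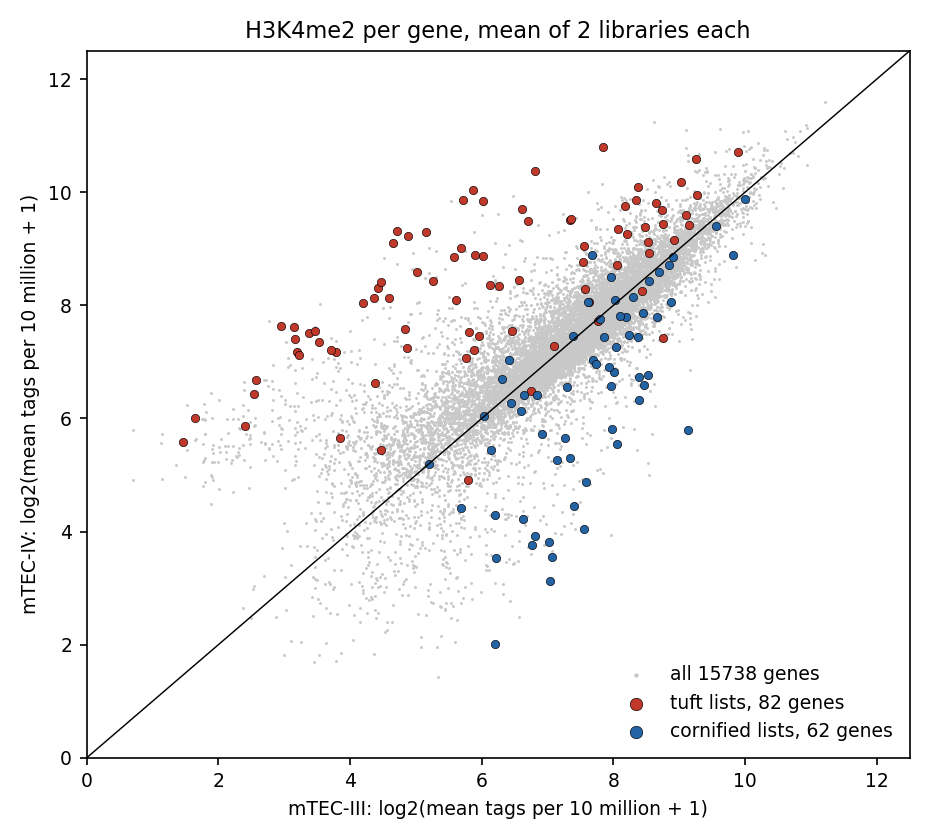
Each point is a gene, placed by its mean H3K4me2 level over 2 libraries in mTEC-III (x axis) and mTEC-IV (y axis), both as log2(tags per 10000000 + 1), with the line of equal levels. Of the 82 measured genes of the tuft lists (red), 75 were called higher in mTEC-IV, and of the 62 measured genes of the cornified lists (blue), 39 were called lower.

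The share of peaks called varied with their place and width. Among the 11330 peaks within 1 kb of a start site, 12.3% were higher in mTEC-IV and 8.53% lower, while among the 2468 peaks over 100 kb away, 36.2% were higher and 13.5% lower. Peaks annotated as promoters were higher in 12.1% and lower in 6.75% of 5376 cases, against 23.9% and 15.5% of the 13430 intronic peaks and 25.6% and 15.4% of the 7819 intergenic peaks. With peaks split into 4 classes of equal size by width, of the narrowest, up to 1431 bases wide, 29.6% were higher and 11.1% lower. Of the widest, over 3273 bases wide, 16.6% were higher and 19.2% lower. Level moved with these classes: the median level of promoter-distant peaks over 100 kb from a start site was 48.1 in mTEC-IV and 29.1 in mTEC-III, against 149.96 and 154.6 within 1 kb. The part of level in these shares was not tested.

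**Figure D2:**
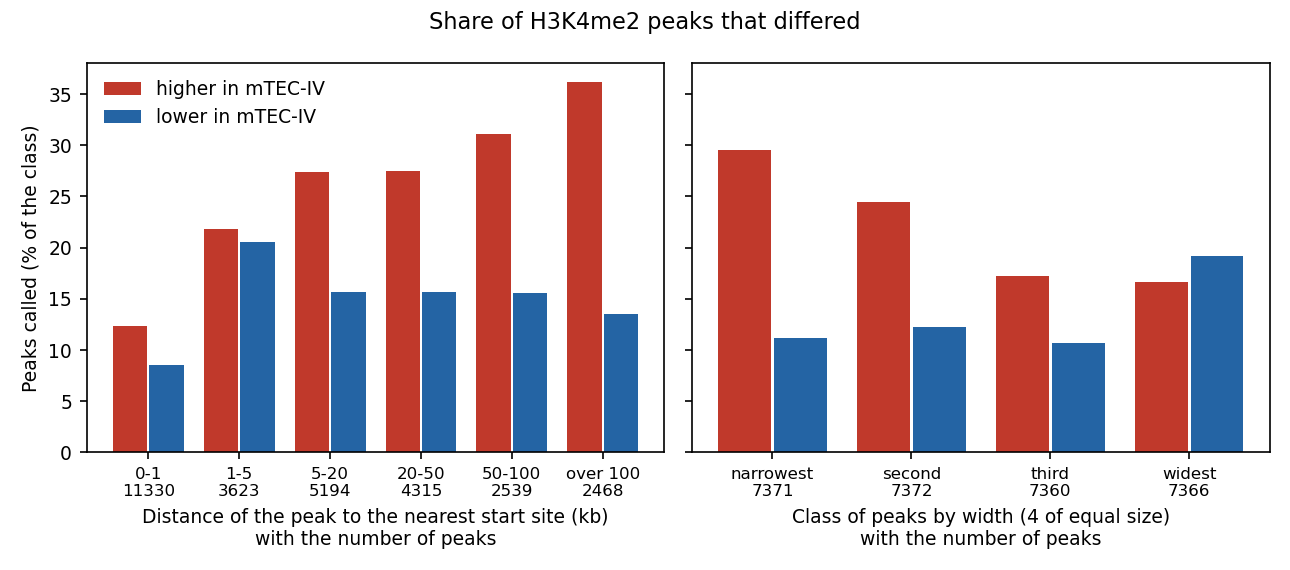
Bars give the percentage of tested peaks called higher (red) or lower (blue) in mTEC-IV than in mTEC-III, by distance to the nearest start site in kb (left) and by class of peak width (right), with the number of peaks under each class. The share called higher was 12.3% within 1 kb of a start site and 36.2% beyond 100 kb.

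The genes behind the sort gates were read first, as a check of the labels. L1cam, on which mTEC-IV was gated, had levels of 181 and 200.1 in mTEC-IV, against 42.9 and 52.4 in mTEC-III (log2 change 1.98 ± 0.22 SE, limma adjusted p = 4.28e-06). Ly6d, on which mTEC-III was gated, had 101 and 111 in mTEC-IV, against 315 and 351 in mTEC-III (log2 change -1.64 ± 0.18 SE, limma adjusted p = 4.84e-06). Both gate genes thus differed in the direction of their gates, with no overlap between the libraries. Itgb4 had 225 and 224 in mTEC-IV, against 234 and 216 in mTEC-III, and its libraries overlapped (log2 change 0.00 ± 0.11 SE, limma adjusted p = 0.989). The MHC class II chain genes H2-Aa and H2-Ab1 were both lower in mTEC-IV, by log2 changes of -0.55 and -0.55. Epcam was marked throughout, with 1091 and 1141 in mTEC-IV, against 884 and 1052 in mTEC-III. Its log2 change of 0.21 (limma adjusted p = 0.0444) ended with equal totals, with loess scaling, with the strongest peak alone and without mTEC-IV replicate 1, mTEC-IV replicate 2 or mTEC-III replicate 1, and turned to -0.098 with peaks within 20 kb alone. Ptprc, which encodes CD45, had 269 and 265 in mTEC-IV, against 34.1 and 30.03 in mTEC-III (log2 change 3.02 ± 0.22 SE, limma adjusted p = 4.25e-08), although both populations were sorted as lacking that protein. All 3 peaks nearest to Ptprc were higher, among them the peak over its promoter at chr1:140070483-140072731 (mm9), with 138.6 and 155.3 in mTEC-IV, against 10.1 and 10.0 in mTEC-III.

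Genes of tuft cells were mostly higher in mTEC-IV. In the 5 lists of tuft genes, 82 of 104 listed genes had a tested peak, of which 75 were called higher in mTEC-IV, 2 lower and 5 neither. The median log2 change over the 82 genes was 2.25, beside 0.01 over all genes tested. Of all tested genes 20.8% were higher and 12.8% lower, shares to set beside the count of each list below. Across the other scalings 73 to 75 were higher, and with 1 library left out 70 to 72. A peak enters the merged table only if it was called in at least 1 population, so a gene marked in mTEC-IV alone had to be higher there if it was measured. These and all other gene lists were chosen with earlier results of these data known. Counts and medians of lists are thus a description and not a test.

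All 11 measured transcription factors of tuft cells were higher in mTEC-IV, with a median log2 change of 1.07. Pou2f3, the factor that tuft cells need, had levels of 1515 and 1542 in mTEC-IV, against 626 and 596 in mTEC-III (log2 change 1.32 ± 0.09 SE, limma adjusted p = 2.73e-08), and 5 of its 6 peaks were higher. Its mark was thus present in mTEC-III as well. Gfi1b, a zinc finger repressor, had 316 and 339.9 in mTEC-IV, against 58.7 and 78.9 in mTEC-III (log2 change 2.25 ± 0.20 SE, limma adjusted p = 3.34e-07). St18, a zinc finger factor, had 773 and 896 in mTEC-IV, against 75.1 and 118 in mTEC-III, the largest log2 change of the list (log2 change 3.13 ± 0.17 SE, limma adjusted p = 3.41e-09). That change came from upstream peaks: the peak at -33121 bases from its start, chr1:6441191-6447191 (mm9), had 488.8 and 560.4 in mTEC-IV, against 15.8 and 29.4 in mTEC-III, while the peak at its start had 45.1 and 51.4 in mTEC-IV, against 20.2 and 34.1 in mTEC-III and was not called (limma adjusted p = 0.107). With peaks within 20 kb alone, the call of St18 ended. Spib, an Ets factor, Hivep3, Hmx3, Nfatc1 and Ascl2 were higher by log2 changes of 1.30, 1.15, 1.07, 0.67 and 0.73. Runx1 (0.81) was not higher in its strongest peak, which lies over the start of the shorter transcript, with 679.0 and 610.6 in mTEC-IV, against 582.9 and 688.9 in mTEC-III. The peak at chr16:92823268-92831950 (mm9), -1290 bases from the start of the longer transcript, had 590.0 and 675.1 in mTEC-IV, against 109.8 and 88.9 in mTEC-III, a log2 change of 2.66. Hmx2 and Sox9 lost their calls without mTEC-III replicate 1, and Sox9 also without either mTEC-IV replicate.

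The taste cascade showed larger changes than the transcription factors, with 12 of 14 measured genes higher and a median log2 change of 3.52. Gnat3, the alpha subunit of gustducin, had 915 and 935 in mTEC-IV, against 47.9 and 55.4 in mTEC-III, and all 6 of its peaks were higher. Plcb2, phospholipase C beta 2, had 600.4 and 651 in mTEC-IV, against 23.3 and 45.9 in mTEC-III. Trpm5, the channel at the end of the cascade, had 603 and 662 in mTEC-IV, against 23.97 and 26.5 in mTEC-III, so its levels in both mTEC-III libraries were a few percent of those in mTEC-IV. These genes changed by 4.14, 4.21 and 4.59 on the log2 scale, with limma adjusted p-values of 1.22e-09, 3.90e-08 and 7.67e-10. Gnb3 and Gng13, which encode the beta and gamma subunits that pair with gustducin, were higher by 3.77 and 1.77. Rgs13, a regulator of G protein signalling, had 1074 and 1025 in mTEC-IV, against 53.6 and 61.2 in mTEC-III (4.17). Calhm1, a channel that releases ATP, changed by 3.85, Tas1r3, a subunit of the sweet and umami receptors, by 3.27, and Sucnr1, the receptor for succinate, by 2.75. Itpr3, the calcium release channel between Plcb2 and Trpm5, did not follow: it had 304 and 307 in mTEC-IV, against 327 and 366 in mTEC-III (log2 change -0.18 ± 0.11 SE, limma adjusted p = 0.256). Ffar3, a receptor for short-chain fatty acids, lost its call (1.78) with loess scaling and without mTEC-IV replicate 1 or mTEC-III replicate 1.

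Bitter taste receptors were the list with the largest median, 3.97, and 19 of 20 measured receptors were higher in mTEC-IV. The other 15 listed receptors had no tested peak under their symbol. Tas2r108 had 549 and 554 in mTEC-IV, against 23.3 and 24.7 in mTEC-III (log2 change 4.46 ± 0.26 SE, limma adjusted p = 6.02e-09). Tas2r115 had 604 and 596 in mTEC-IV, against 21.5 and 35.3 in mTEC-III, and Tas2r118 had 286 and 275 in mTEC-IV, against 21.5 and 24.7 in mTEC-III. In mTEC-III the levels of the receptors higher in mTEC-IV ran from 1.89 in one library for Tas2r106 to 58.3 for Tas2r134, some of them under the floor of 3 tags, which is 3.78 and 3.53 in the mTEC-III libraries. Tas2r119 (0.99) was near the threshold and lost its call without any 1 of the 4 libraries, with equal totals, with loess scaling and with DESeq2. Tas2r143 was lower, with 33.5 and 24.5 in mTEC-IV, against 63.1 and 45.9 in mTEC-III (log2 change -0.89 ± 0.32 SE, limma adjusted p = 0.0448), and also lost its call without any 1 library and with DESeq2. Receptors of this family resemble each other, and the counting of reads shared between copies is not stated, so values of single receptors are uncertain.

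Of 13 measured genes for tuft effector molecules, 10 were higher in mTEC-IV (median log2 change 1.499). Il25, which encodes the cytokine by which tuft cells call on innate lymphoid cells, had 144 and 143 in mTEC-IV, against 13.9 and 11.8 in mTEC-III (log2 change 3.39 ± 0.33 SE, limma adjusted p = 9.67e-07). Alox5, 5-lipoxygenase, had 460.2 and 479.7 in mTEC-IV, against 63.7 and 63.6 in mTEC-III (log2 change 2.86 ± 0.16 SE, limma adjusted p = 5.27e-09), and Alox5ap, its activating protein, was higher by 2.17. Within Alox5, the peak in intron 1 was higher by 4.09 while a peak in intron 7 was lower, with 18.7 and 20.3 in mTEC-IV, against 35.3 and 40.6 in mTEC-III. Ptgs1, cyclooxygenase 1, and Hpgds, which makes prostaglandin D2, were higher by 2.18 and 1.499. Slc18a3, the vesicular transporter of acetylcholine, had 374 and 395 in mTEC-IV, against 29.0 and 33.6 in mTEC-III (3.58). Il17rb, a chain of the interleukin 25 receptor, was higher by 1.53, and Tslp, an epithelial cytokine, by 1.09. Ptgs2, the inducible cyclooxygenase, had 222 and 201 in mTEC-IV, against 195 and 237 in mTEC-III, and its libraries overlapped. Il4ra and Il13ra1, receptor chains for interleukins 4 and 13, were not called either, at 0.22 and 0.18. Il4ra was called higher with edgeR, with limma-voom, with the 4 mTEC-IV and mTEC-III libraries alone and without both mTEC-I libraries. Ltc4s (0.43) lost its call without mTEC-IV replicate 2 or mTEC-III replicate 2, and Pla2g4a (0.70) was lower in its strongest peak, at -0.54.

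Among 24 measured genes of tuft structure and signalling, 23 were higher in mTEC-IV and 1 lower (median 1.79). Dclk1, a microtubule-associated kinase and marker of tuft cells, had 1054 and 1115 in mTEC-IV, against 334 and 330.3 in mTEC-III (log2 change 1.70 ± 0.08 SE, limma adjusted p = 6.35e-10). Pik3cg, the catalytic subunit of PI3-kinase gamma, had 1817 and 1753 in mTEC-IV, against 223 and 233 in mTEC-III (log2 change 2.97 ± 0.09 SE, limma adjusted p = 5.04e-12), and Pik3r5, a regulatory subunit of the same kinase, was higher by 2.78. Lrmp, a membrane protein marking tuft cells, had 1332 and 1310.1 in mTEC-IV, against 114 and 109 in mTEC-III (3.55), and Avil, an actin-binding protein of the tuft, had 350.2 and 339 in mTEC-IV, against 40.4 and 34.2 in mTEC-III (3.18). The adaptor Sh2d7, the lectin Siglecf and the receptor Cd300lf were higher by 3.81, 4.24 and 4.15. Krt8 and Krt18, the keratin pair of simple epithelia, had smaller changes of 1.15 and 0.94; Krt8 had 1109 and 1198 in mTEC-IV, against 499 and 537 in mTEC-III. Alox12e, an epidermal lipoxygenase placed in this list, was lower, with 169 and 174 in mTEC-IV, against 434 and 428 in mTEC-III (log2 change -1.33 ± 0.11 SE, limma adjusted p = 2.20e-07). Vil1, villin (2.24), lost its call without any 1 of the 4 libraries.

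**Figure D3:**
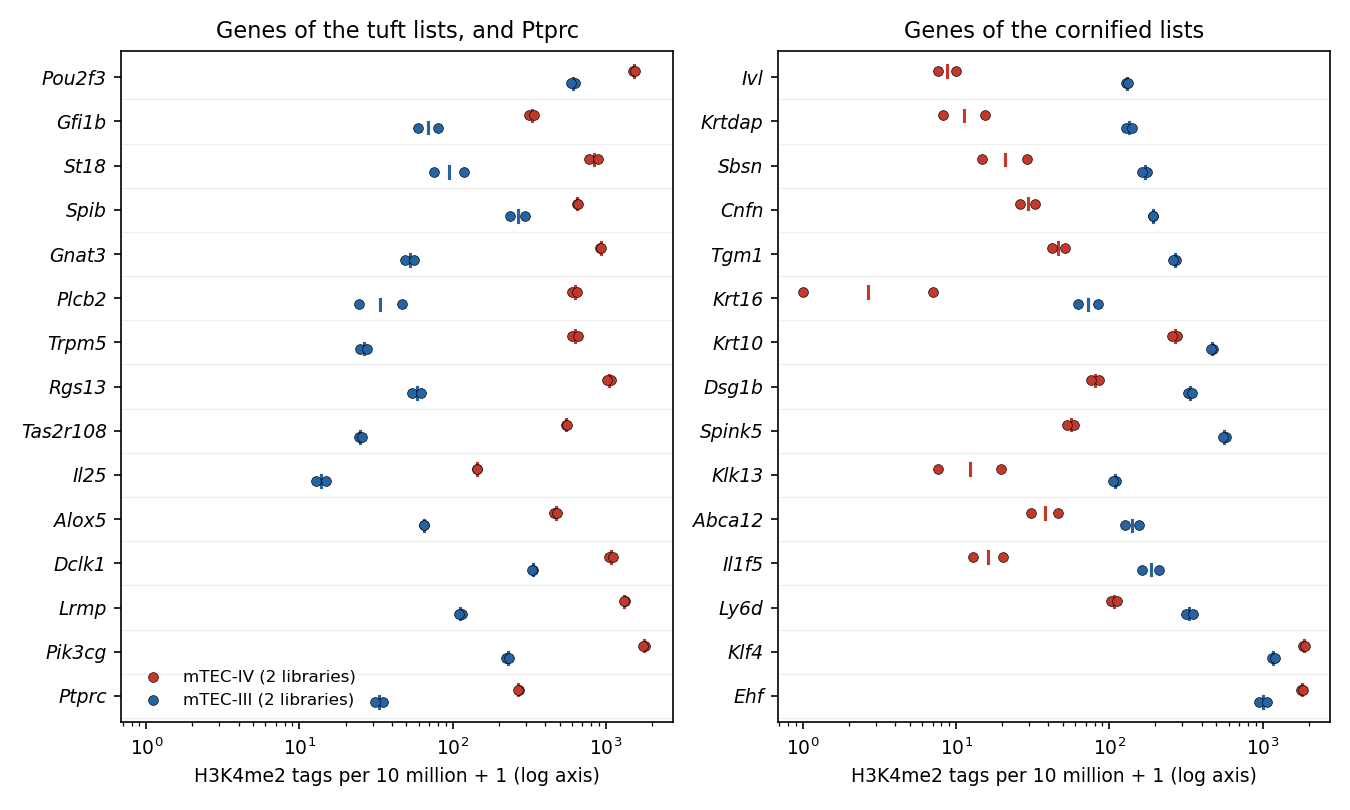
Points give the H3K4me2 level of each gene in each library as tags per 10000000 + 1 on a log axis, with 2 mTEC-IV libraries (red) above 2 mTEC-III libraries (blue) and a bar at the mean of the log values. All genes of the left panel were called higher in mTEC-IV; in the right panel all but Klf4 and Ehf, which were higher, were called lower.

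The cornified lists moved the other way, with fewer of their genes called. In the 4 lists of cornified effector genes 62 of 91 listed genes had a tested peak, of which 39 were lower in mTEC-IV, 4 higher and 19 neither, with a median log2 change of -0.80. Across the other scalings 39 to 42 were lower, and with 1 library left out 34 or 35. The genes called higher were Krt1 (0.44), Krt4 (0.64), Smpd3 (0.54) and Ly6g6e (1.21). Of these, Krt1 lost its call without any 1 library, and Krt4 without either mTEC-IV replicate or mTEC-III replicate 1 and with DESeq2 or loess scaling.

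Cornified envelope genes were lower at 10 of 15 measured members, and none was higher (median -1.75). Ivl, involucrin, had 6.60 and 8.96 in mTEC-IV, against 128 and 132 in mTEC-III (log2 change -3.91 ± 0.39 SE, limma adjusted p = 1.50e-06). Krtdap, a secreted protein of differentiating keratinocytes, had 14.3 and 7.17 in mTEC-IV, against 127 and 140.1 in mTEC-III (log2 change -3.59 ± 0.36 SE, limma adjusted p = 1.50e-06), and Sbsn, suprabasin, had 28.0 and 13.7 in mTEC-IV, against 174 and 163 in mTEC-III (-3.03). Both mTEC-IV libraries lay far below both mTEC-III libraries at all of these genes. Tgm1, the transglutaminase that links the envelope, had 50.03 and 41.2 in mTEC-IV, against 271 and 260.2 in mTEC-III (log2 change -2.52 ± 0.17 SE, limma adjusted p = 2.73e-08), and Tgm5, a second one, was lower by a log2 change of -2.90. Cnfn, cornifelin, and Hrnr, hornerin, changed by -2.72 and -3.23, and Ppl, the desmosomal linker periplakin, by -0.75. Lor, loricrin, the main envelope protein of the epidermis, had 175 and 173 in mTEC-IV, against 165 and 169.6 in mTEC-III and did not differ beyond its spread (log2 change 0.06 ± 0.12 SE, limma adjusted p = 0.752). Sprr1a, Evpl, Tgm3 and Calml3 were not called, at -0.15, -0.23, 0.39 and -0.40. Tgm3 was called higher with the strongest peak alone, without mTEC-III replicate 2 and without both mTEC-I libraries. Calml3 was called lower with edgeR, with limma-voom, with the 4 mTEC-IV and mTEC-III libraries alone and without both mTEC-I libraries. The 15 listed genes with no tested peak included Flg, filaggrin, and all listed genes of the late cornified envelope family.

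Among suprabasal keratins and desmosomal genes, 10 of 18 were lower. Krt10, the keratin of the spinous layer, had 277 and 256 in mTEC-IV, against 477 and 457 in mTEC-III (log2 change -0.81 ± 0.10 SE, limma adjusted p = 1.45e-05). Krt16, a keratin of stressed epidermis, had 6.05 and 0 in mTEC-IV, against 83.3 and 61.8 in mTEC-III (log2 change -4.78 ± 0.73 SE, limma adjusted p = 1.04e-04), where the mTEC-IV value rests on 5.50 tags in all. Dsg1b, a cadherin of the upper epidermal desmosomes, had 84.1 and 74.7 in mTEC-IV, against 325 and 343 in mTEC-III (log2 change -2.06 ± 0.13 SE, limma adjusted p = 1.02e-08). Its relatives Dsg1a, Dsc1 and Dsc3 were lower by log2 changes of -1.39, -2.05 and -1.18, and Perp, a desmosomal membrane protein, by -0.93. Other desmosomal genes were not called: Dsp, desmoplakin, had 962 and 909 in mTEC-IV, against 1042 and 1010.4 in mTEC-III (-0.13), Dsc2 changed by -0.03 and Pkp1, plakophilin 1, by -0.15. Dsp and Pkp1 were called lower with equal totals, with loess scaling and with edgeR. Krt77 (-2.70) lost its call without mTEC-IV replicate 2 or either mTEC-III replicate.

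Genes of barrier lipids and proteases were lower at 13 of 19 measured members (median -0.75). Spink5, an inhibitor of the kallikrein proteases of the skin, had 57.7 and 52.0 in mTEC-IV, against 573 and 551 in mTEC-III (log2 change -3.34 ± 0.13 SE, limma adjusted p = 2.39e-10), the largest change of the list. Klk13, a kallikrein, had 18.7 and 6.57 in mTEC-IV, against 109.8 and 105 in mTEC-III (-3.15). Abca12, the lipid transporter of lamellar granules, had 45.1 and 29.9 in mTEC-IV, against 156 and 126 in mTEC-III (log2 change -1.90 ± 0.27 SE, limma adjusted p = 5.73e-05). Pnpla1, Cers3 and Sdr9c7, enzymes of the ceramides that waterproof the skin, were lower by -2.42, -1.60 and -1.87. St14, matriptase, and Prss8, its partner protease, present in many epithelia, were not called, at -0.04 and -0.11. Smpd3, a sphingomyelinase, was higher, with 356 and 366 in mTEC-IV, against 232 and 266 in mTEC-III (log2 change 0.54 ± 0.11 SE, limma adjusted p = 8.96e-04). The calls of Casp14 and Klk10 ended without any 1 library, and that of Klk8 without mTEC-IV replicate 1 or mTEC-III replicate 2.

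Ly6 genes and other surface or secreted genes of keratinocytes were lower at 6 of 10 measured members. Il1f5, the interleukin 36 receptor antagonist, had 19.2 and 11.95 in mTEC-IV, against 211 and 162 in mTEC-III (log2 change -3.52 ± 0.41 SE, limma adjusted p = 8.03e-06), and Il1rn, the interleukin 1 receptor antagonist, had 198 and 243 in mTEC-IV, against 379.8 and 430.4 in mTEC-III (-0.88). Anxa8, an annexin of stratified epithelia, and S100a14, a calcium-binding protein, were lower by -2.18 and -1.03. Ly6g6e, a Ly6 family gene, went against its list, with 459.7 and 485 in mTEC-IV, against 204 and 204 in mTEC-III (log2 change 1.21 ± 0.14 SE, limma adjusted p = 5.71e-06). Ly6g6c (-1.89) lost its call without mTEC-III replicate 2.

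Transcription factors known from cornifying epithelium were split. Of 20 measured, 5 were higher in mTEC-IV, 5 lower and 10 not called, with a median log2 change of -0.16. Over all tested genes, 20.8% were higher and 12.8% lower. Klf4, which barrier formation in the skin needs, had 1838 and 1884 in mTEC-IV, against 1144 and 1201 in mTEC-III (log2 change 0.67 ± 0.06 SE, limma adjusted p = 3.55e-07), so it was higher in mTEC-IV. Klf5, a related factor of proliferating epithelium, had 1751 and 1794 in mTEC-IV, against 1057 and 1131 in mTEC-III (0.70). Ehf, an epithelial Ets factor, had 1776 and 1844 in mTEC-IV, against 951 and 1076 in mTEC-III (log2 change 0.84 ± 0.07 SE, limma adjusted p = 1.86e-07), and Elf3, another, was higher by 0.49. Of 10 peaks nearest to Klf4, 4 were higher and 1 lower, and the peak 32765 bases beyond its start, at chr4:55510876-55514288 (mm9), had 208.4 and 201.3 in mTEC-IV, against 18.9 and 14.7 in mTEC-III. Trp63, the master regulator of stratified epithelium, had 846 and 857 in mTEC-IV, against 1078 and 1078 in mTEC-III (log2 change -0.34 ± 0.06 SE, limma adjusted p = 4.98e-04), with 4 of its 10 peaks lower and 1 higher. Tfap2a, an AP-2 factor of the epidermis, had 700.5 and 719 in mTEC-IV, against 1001 and 1005 in mTEC-III (-0.50). Grhl3 and Zfp750, which the skin barrier needs, were not called, at -0.14 and -0.09, but both were called lower with peaks within 20 kb or the strongest peak alone, at -0.53 and -0.49, and Zfp750 also with equal totals. The number called lower was 3 without mTEC-IV replicate 1, 4 without mTEC-IV replicate 2 or mTEC-III replicate 2, 6 without mTEC-III replicate 1, 7 with the 4 libraries alone, 8 with RLE or loess scaling or the strongest peak, 9 with edgeR, limma-voom or without both mTEC-I libraries, and 10 with equal totals. Maf (0.25) turned to -0.031 with peaks within 20 kb or the strongest peak alone and was not called there.

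Genes of the Notch pathway, which acts in keratinocyte differentiation, differed in both directions. Of 14 measured, 7 were lower in mTEC-IV and 4 higher. Notch2 had 914 and 893 in mTEC-IV, against 1392 and 1361 in mTEC-III (log2 change -0.61 ± 0.06 SE, limma adjusted p = 2.62e-06), and Nrarp, a feedback inhibitor of Notch signalling, had 558 and 542 in mTEC-IV, against 1046 and 1123 in mTEC-III (log2 change -0.98 ± 0.07 SE, limma adjusted p = 7.51e-08), with 4 of its 5 peaks lower. Jag1, a Notch ligand, and Rbpj, the DNA-binding partner of Notch, were lower by -0.42 and -0.48. Another ligand, Jag2, was higher, with 210.0 and 203 in mTEC-IV, against 75.7 and 75.4 in mTEC-III (log2 change 1.44 ± 0.13 SE, limma adjusted p = 4.79e-07), as were the coactivator Maml2 (1.42) and Hes5 (0.80), a target in other tissues. With the strongest peak of each gene alone, 4 were lower. Notch1, Notch3 and Hey1 lost their calls there, and Notch3 also without mTEC-IV replicate 1. Hey1 also lost its call with peaks within 20 kb alone and without either mTEC-IV replicate or mTEC-III replicate 2. The call of Dll4 ended without mTEC-IV replicate 2 or either mTEC-III replicate.

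**Figure D4:**
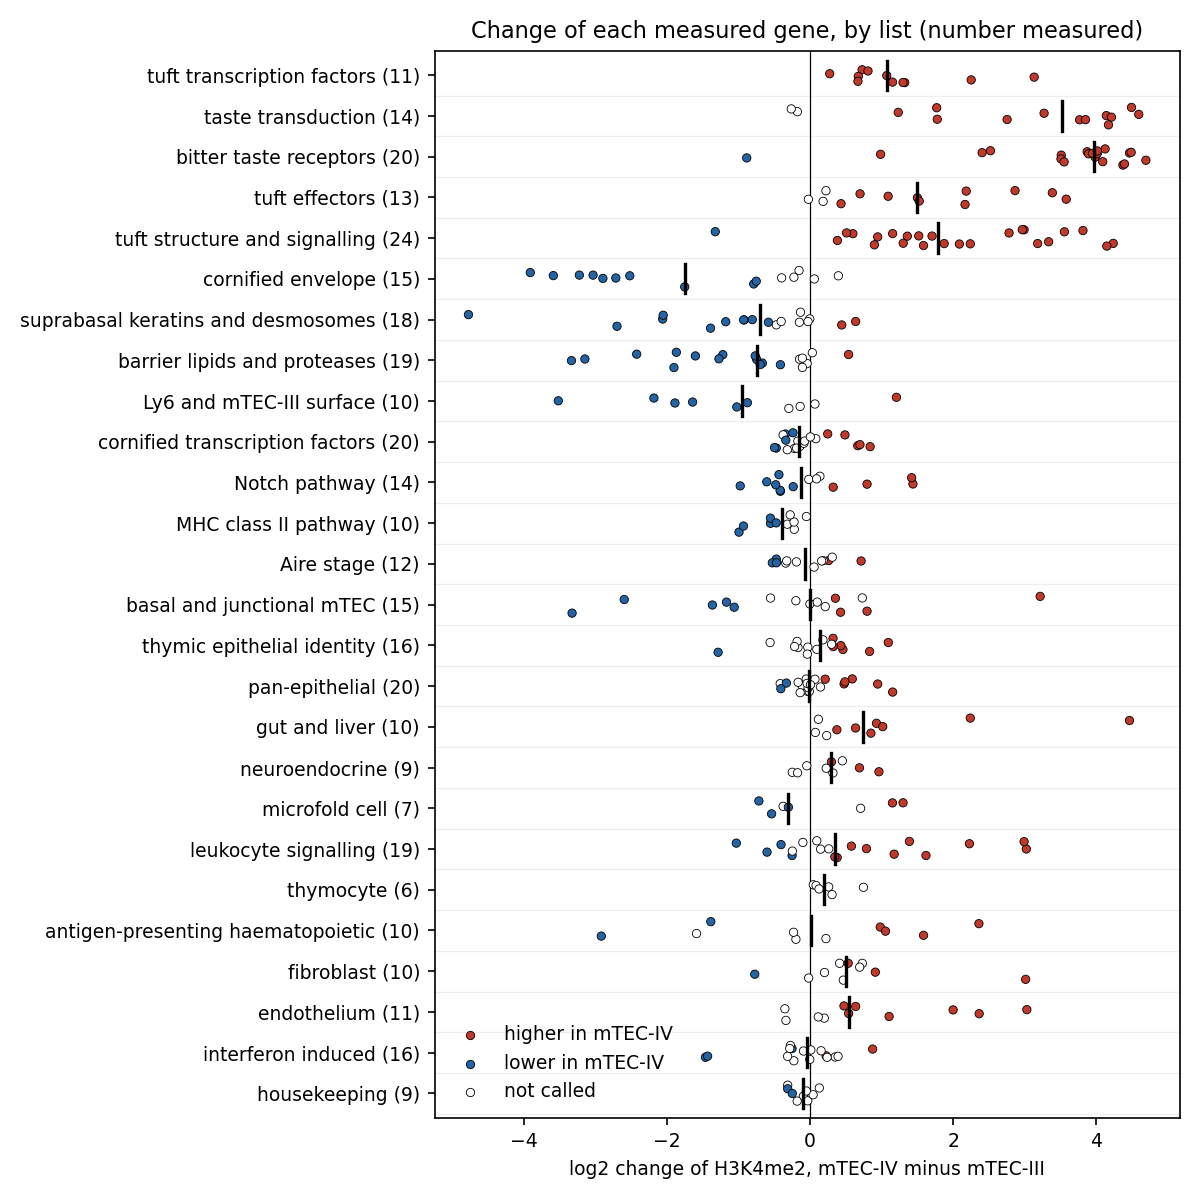
Each point is the log2 change of a measured gene, mTEC-IV minus mTEC-III, by list, with the number measured and a black bar at the median; red genes were called higher in mTEC-IV, blue genes lower and open points not called. The 5 tuft lists lie right of 0 with medians of 1.07 to 3.97, and the 4 lists of cornified effector genes have medians of -1.75 to -0.70.

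Keratins of basal epithelium were also lower in mTEC-IV. Krt5 had 33.0 and 26.3 in mTEC-IV, against 179.8 and 187 in mTEC-III (log2 change -2.60 ± 0.16 SE, limma adjusted p = 1.02e-08), Krt14, its partner, had 52.2 and 44.8 in mTEC-IV, against 108 and 148 in mTEC-III (-1.37), and Krt17 had 41.8 and 30.5 in mTEC-IV, against 341 and 396 in mTEC-III (log2 change -3.33 ± 0.15 SE, limma adjusted p = 7.29e-10). In the list of basal and junctional mTEC genes, 5 of 15 were lower and 4 higher, with 3 lower without mTEC-III replicate 2. Ackr4, a scavenging receptor for the chemokine Ccl21, was the most changed of the higher ones, with 489 and 499 in mTEC-IV, against 58.0 and 47.1 in mTEC-III (log2 change 3.22 ± 0.15 SE, limma adjusted p = 7.29e-10). Ackr4 and Krt5 had 2 peaks each, and none of these spanned the start site of its gene. Dst, dystonin, a linker of hemidesmosomes, was higher by 0.80. Itga6, which pairs with Itgb4, was higher by 0.35 when its 6 peaks were summed and changed by -0.033 in its strongest peak.

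Genes of antigen presentation were moderately lower. Of 10 measured genes of the MHC class II pathway, 5 were lower in mTEC-IV and none higher (median -0.40). The sort gate for low MHC class II in mTEC-IV reads the protein at the surface. Cd74, the invariant chain, had 179 and 149 in mTEC-IV, against 293 and 363 in mTEC-III (log2 change -0.99 ± 0.13 SE, limma adjusted p = 2.72e-05), and Ciita, the master activator of the pathway, had 147 and 162 in mTEC-IV, against 258 and 339 in mTEC-III (log2 change -0.93 ± 0.12 SE, limma adjusted p = 2.15e-05). H2-Eb1 changed by -0.47. In the list of Aire-stage genes, in which Aire had no tested peak, 3 of 12 were lower and 2 higher. Over all tested genes, 12.8% were lower and 20.8% higher. Fezf2, a factor for tissue-restricted antigens, had 1466 and 1377 in mTEC-IV, against 1945 and 1998 in mTEC-III (-0.47), and Cd274, which encodes the checkpoint ligand PD-L1, had 1673 and 1705 in mTEC-IV, against 1023 and 1037 in mTEC-III (log2 change 0.71 ± 0.06 SE, limma adjusted p = 1.32e-07). Without mTEC-III replicate 2 the number of Aire-stage genes lower was 1, and without any 1 of the other 3 libraries the number higher was 1. The call of Cd80 ended without either mTEC-IV replicate or mTEC-III replicate 1, and that of Cd40 without mTEC-III replicate 2.

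Identity genes of thymic epithelium were marked in both populations. Foxn1, the factor that thymic epithelium needs, had 175 and 185 in mTEC-IV, against 413 and 469 in mTEC-III (log2 change -1.29 ± 0.09 SE, limma adjusted p = 4.18e-08) and was the only one of the 16 genes of this list lower in mTEC-IV, while with loess scaling 4 were lower, and with edgeR, limma-voom, RLE scaling or equal totals, with the 4 libraries alone, with peaks within 20 kb, and without both mTEC-I libraries or mTEC-III replicate 1, 2 were. Eya1, a cofactor in the development of the pharyngeal pouches, had 2109.7 and 2151 in mTEC-IV, against 945 and 1055 in mTEC-III (log2 change 1.09 ± 0.07 SE, limma adjusted p = 9.90e-09), with 6 of its 7 peaks higher. The pouch factor Hoxa3 was higher by 0.83. In all 6 genes of the list were higher, 3 without mTEC-IV replicate 2 or mTEC-III replicate 1; those whose calls ended in that way were Pax1, Tbx1 and Dll4. Pax9 had 1436 and 1476 in mTEC-IV, against 1440.2 and 1539 in mTEC-III and was not called (-0.03). Of 20 pan-epithelial genes, which include Krt8, Krt18, Elf3 and Epcam, 6 were higher and 2 lower, with 3 higher without either mTEC-IV replicate or without mTEC-III replicate 1, and 1 lower without mTEC-IV replicate 1 or mTEC-III replicate 2 and 4 with edgeR, limma-voom or without both mTEC-I libraries. Cdh1, E-cadherin, had 817 and 758 in mTEC-IV, against 789.8 and 827 in mTEC-III, and the libraries of both populations overlapped.

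Genes of gut and liver were higher at 7 of 10 measured members, and none was lower (median 0.74); 5 were higher without mTEC-IV replicate 2. Fabp1, a fatty acid binding protein of enterocytes and hepatocytes, had 233 and 282 in mTEC-IV, against 11.4 and 10.0 in mTEC-III (log2 change 4.46 ± 0.33 SE, limma adjusted p = 6.68e-08), from a pair of peaks at -10218 and -18663 bases from its start. The intestinal factors Cdx1 and Cdx2 were higher by 0.93 and 1.01, and the endodermal factor Foxa2 by 0.85. Of 9 neuroendocrine genes, 3 were higher, among them Chgb (0.96) and Pax6 (0.30); Pax6 lost its call without any 1 library and Chgb without mTEC-IV replicate 2, while 5 of the 9 were higher with edgeR, limma-voom or without both mTEC-I libraries. Among 7 genes of microfold cells, Spib and Sox8 (1.15) were higher and 3 were lower, among them Tnfaip2, with 340.3 and 351 in mTEC-IV, against 575 and 562 in mTEC-III (log2 change -0.72 ± 0.09 SE, limma adjusted p = 1.29e-05). Calls of the other 2, Marcksl1 and Tnfrsf11b, ended without mTEC-IV replicate 2 or mTEC-III replicate 2, and that of Marcksl1 also without either other library.

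Markers of other cells that a thymus sort could hold were read as lists. Of 24 signalling genes usually described in leukocytes, a list that holds Ptprc and overlaps the tuft lists, 19 were measured, of which 10 were higher in mTEC-IV and 4 lower. Their summed level was 8114 and 8491 in mTEC-IV, against 5002 and 5237 in mTEC-III. Inpp5d, a lipid phosphatase, had 566 and 651 in mTEC-IV, against 120.5 and 138 in mTEC-III (log2 change 2.23 ± 0.16 SE, limma adjusted p = 4.41e-08), and Ptpn6, a tyrosine phosphatase, had 1063 and 1105 in mTEC-IV, against 414 and 413 in mTEC-III (1.39); Vav1, an exchange factor, was higher by 1.62. Dock2 (-1.03) and Syk (-0.60) were lower, with calls that ended within 20 kb or in the strongest peak, and 2 genes were lower without either mTEC-IV replicate or without mTEC-III replicate 1. Of 18 thymocyte markers 6 were measured and none was called by limma with all 8 libraries, where 0 had an unadjusted p under 0.05. Themis, a signalling protein of developing T cells, changed by 0.75 (limma adjusted p = 0.125) and was called higher with edgeR, DESeq2 and limma-voom, with limma on the 4 mTEC-IV and mTEC-III libraries alone and without both mTEC-I libraries. Zap70, a kinase of the T cell receptor, was called higher in its strongest peak, at 0.65. Their summed level was 1477 and 1563 in mTEC-IV, against 1295 and 1406 in mTEC-III, and Cd3e, Cd4, Cd8a and Rag1 had no tested peak.

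Of 18 markers of antigen-presenting blood cells 10 were measured, of which 4 were higher in mTEC-IV and 2 lower, with a summed level of 806 and 851 in mTEC-IV, against 679 and 714 in mTEC-III. The B cell genes Cd79a and Cd79b were higher, Cd79b with 123 and 125 in mTEC-IV, against 35.96 and 45.9 in mTEC-III (log2 change 1.59 ± 0.28 SE, limma adjusted p = 4.08e-04), and so was Pax5 (1.05), while Ms4a1 had no tested peak. Itgax, an integrin of dendritic cells, was lower, with 8.80 and 11.95 in mTEC-IV, against 93.4 and 76.0 in mTEC-III (log2 change -2.92 ± 0.40 SE, limma adjusted p = 3.79e-05), and Spi1 and Lyz2 had no tested peak. Calls of Flt3 and Itgam ended without mTEC-IV replicate 1 or mTEC-III replicate 1, and that of Flt3 also without mTEC-IV replicate 2. Fibroblast markers were higher at 3 of 10 and lower at 1, beside 20.8% higher and 12.8% lower of all tested genes. Their summed level was 1072 and 1149 in mTEC-IV, against 768 and 869 in mTEC-III. Pdgfrb had 126 and 127 in mTEC-IV, against 11.98 and 18.3 in mTEC-III (log2 change 3.01 ± 0.32 SE, limma adjusted p = 3.01e-06), while Col1a1, a main collagen, was not called (0.20) and Col1a2 and Col3a1 had no tested peak. The 2 peaks nearest to Pdgfrb did not span its start site. Without mTEC-IV replicate 2 or mTEC-III replicate 1, 2 fibroblast markers were higher. Endothelial markers were higher at 7 of 11, with a summed level of 2666 and 2635 in mTEC-IV, against 1614 and 1743 in mTEC-III, and at 3 with peaks within 20 kb alone. Tek, a receptor of endothelium, had 416 and 398 in mTEC-IV, against 68.1 and 90.1 in mTEC-III (log2 change 2.36 ± 0.17 SE, limma adjusted p = 5.94e-08), and Cdh5, the endothelial cadherin, had 103 and 124 in mTEC-IV, against 11.4 and 14.7 in mTEC-III (3.03), while Pecam1 had 62.7 and 56.8 in mTEC-IV, against 67.5 and 86.6 in mTEC-III and was not called. In such sorted bulk samples, fewer cells of a type and less mark per cell cannot be told apart, and the part of other cell types in the results was not tested.

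Of 16 measured interferon-induced genes 2 were higher and 3 lower in mTEC-IV, beside 20.8% higher and 12.8% lower of all tested genes. Among the called genes were Mx1 (-1.43) and Ifit3 (-1.46), both lower, and Rsad2 (0.87), higher. The call of Oasl2 ended without any 1 library, and 6 of the 16 were higher with edgeR or limma-voom. Of 9 housekeeping genes none was higher by limma and 2 were lower, among them Eef1a1 (-0.31), which was not called without mTEC-IV replicate 2. Actb had 435 and 440.3 in mTEC-IV, against 449 and 486 in mTEC-III.

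Outside the lists, the 10 genes of largest change in each direction were read, among genes called, with no overlap and a mean level of at least 50 in the higher population. On the higher side stood BC039966, Cpvl, Agt, Gm3414, Erich4, 5033404E19Rik, Fcrls and Olfr231 beside Tas2r120 and Trpm5. Agt, angiotensinogen, had 199 and 219.9 in mTEC-IV, against 5.68 and 5.89 in mTEC-III (log2 change 4.95 ± 0.83 SE, limma adjusted p = 2.47e-04). BC039966, Cpvl and Fcrls had 1 to 3 tags in the mTEC-III libraries together, so their ratios of mTEC-IV over mTEC-III are loose, 88.4 (95% interval 15.5 to 3527), 40.7 (13.6 to 200.1) and 42.8 (11.5 to 358.6), where the intervals cover counting error only. On the lower side stood Krt16, Fahd1, Ptk6, Ivl, C130079G13Rik, Krtdap, Psapl1, Sdr16c5, Il1f5 and Il1f6, so that 4 of the 10 belong to the cornified lists. Ptk6, a tyrosine kinase of differentiating epithelium, had 18.7 and 10.2 in mTEC-IV, against 266 and 232 in mTEC-III (log2 change -4.07 ± 0.30 SE, limma adjusted p = 5.44e-08), and Psapl1, a prosaposin-like gene, had 31.9 and 29.9 in mTEC-IV, against 368 and 372 in mTEC-III (-3.54).

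The 4 peaks of smallest p-value in each direction were all intronic. The first was a peak of 19857 bases in intron 1 of Mctp1, at chr13:76676582-76696438 (mm9), with 1786 and 1754 in mTEC-IV, against 135.0 and 159.0 in mTEC-III, a log2 change of 3.59 ± 0.11 (SE, limma adjusted p = 1.92e-08). A peak in intron 2 of Pik3cg, at chr12:32879018-32895634, had 1228 and 1169 in mTEC-IV, against 99.7 and 98.3 in mTEC-III, and peaks in intron 1 of Dclk1 and intron 3 of 4932413F04Rik were higher by 2.38 and 3.87. On the lower side, a peak in intron 2 of Skint2, an immunoglobulin-like gene, at chr4:112285275-112294351, had 116.0 and 112.9 in mTEC-IV, against 577.2 and 564.1 in mTEC-III (log2 change -2.31 ± 0.09). Similar members of the Skint family make this locus uncertain. Peaks in Spink5 and Krt17, and an intronic peak 100800 bases from the start of Wdsub1, its nearest, changed by -3.45, -3.33 and -2.92.

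Called peaks stood beside each other. Runs of 5 or more neighbouring peaks that were all higher in mTEC-IV numbered 102, and runs that were all lower numbered 16. The longest higher run had 18 peaks over 2368 kb, at chr6:131627709-133996015 (mm9), from Tas2r106 through 11 further bitter receptors to Etv6, with log2 changes of 0.33 to 4.999. Its last peak, nearest Etv6, a repressor of the Ets family, was high in both populations, with 693.9 and 666.7 in mTEC-IV, against 528.6 and 553.5 in mTEC-III. A run of 8 peaks at chr1:145924385-146345973 covered Rgs2, Rgs13 and Rgs21, regulators of G protein signalling, with changes of 3.50 to 4.49. The longest lower runs had 6 peaks. One of these, at chr11:100065091-100155613, covered Krt14, Krt16, Krt17 and Krt42, with changes of -4.78 to -0.83, and another, at chr2:24040882-24199062, covered the interleukin 1 family genes Il1f9, Il1f6, Il1f5, Il1f10 and Il1rn, with changes of -3.52 to -1.35. In 5 neighbouring peaks at chr3:92375113-93126319, among the genes of the epidermal differentiation complex, Ivl, 2310050C09Rik, Crct1, Crnn and Hrnr were lower. Peaks of a run share their neighbourhood and are not independent of each other, and the runs described were chosen after their values were seen.

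**Figure D5:**
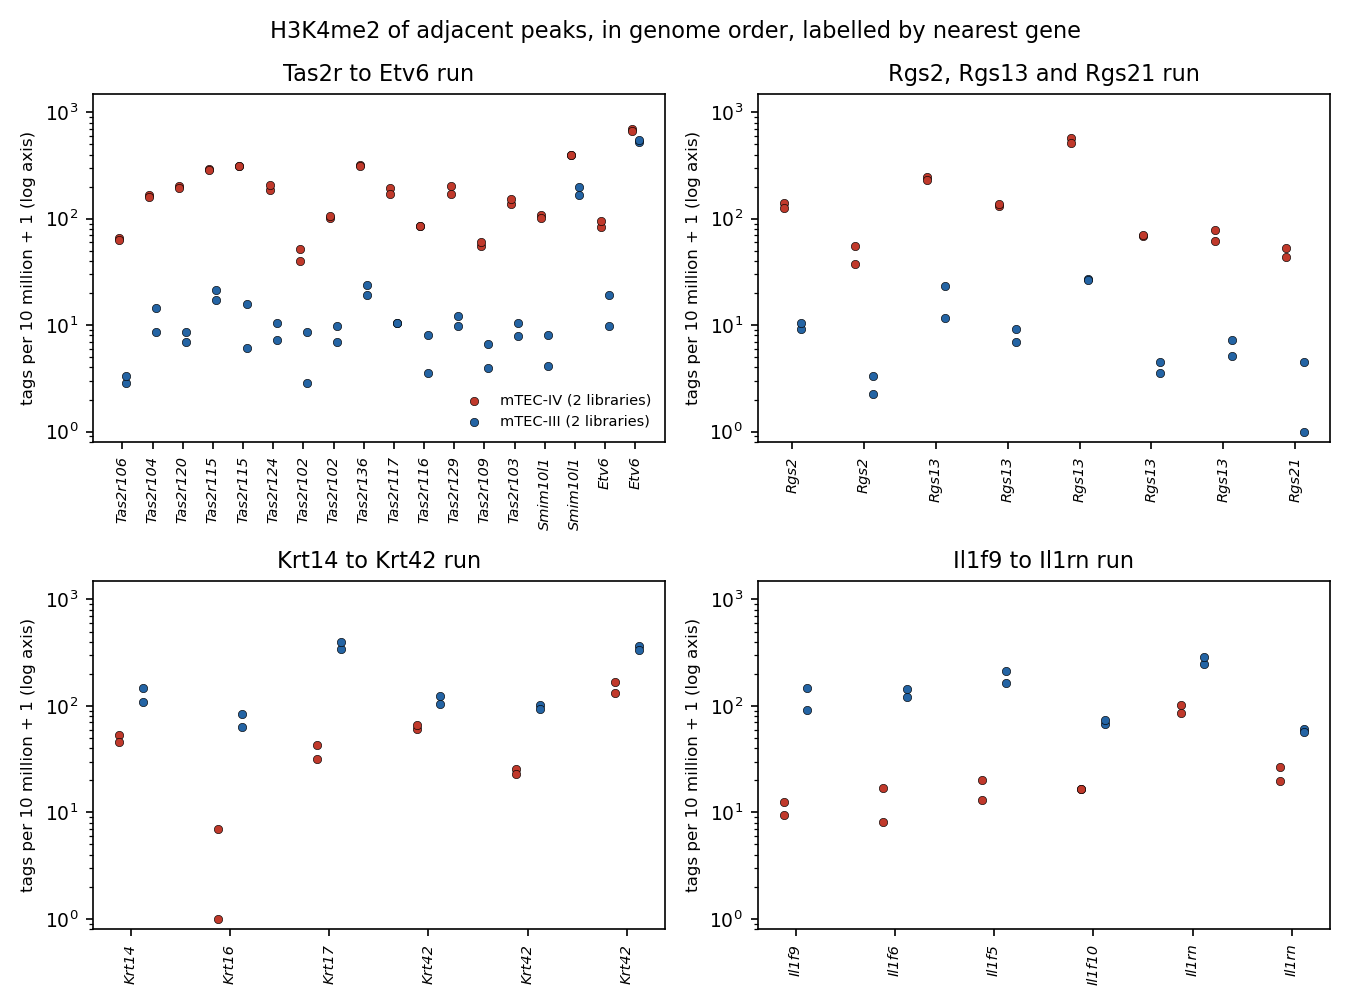
Each panel follows neighbouring peaks in genome order, named by the gene of the nearest start site, with the level in 2 mTEC-IV libraries (red) and 2 mTEC-III libraries (blue) as tags per 10000000 + 1 on a log axis. In the upper runs mTEC-IV lies above mTEC-III at every peak, and in the lower runs below it.

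Some genes had peaks that differed in opposite directions. Of 6535 genes with at least 2 tested peaks, 740 (11.3%) had at least 1 peak higher and at least 1 lower in mTEC-IV, and 447 of these (60.4%) were not called as genes, against 53.3% of all genes with at least 2 tested peaks and 66.5% of all genes tested. Nav2, a neuron navigator gene, had 6 of 11 peaks higher and 5 lower, and its summed level changed by 0.00 (limma adjusted p = 0.997). Adgrl2, Pde4b, Tiam1 and Nabp1 had 4 peaks in each direction; of these, Pde4b (0.14) and Nabp1 (0.42) were called higher as genes. These genes were chosen after their values were seen, as those with most peaks in the less frequent direction.

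The other mTEC populations of the series, mTEC-II and mTEC-I, place the changes. Of the 6478 peaks higher in mTEC-IV, both mTEC-IV libraries lay above all 4 libraries of mTEC-II and mTEC-I at 72.4%, and both mTEC-III libraries lay below all 4 at 33.3%. Of the 3926 peaks lower in mTEC-IV, both mTEC-IV libraries lay below all 4 at 54.1%, and both mTEC-III libraries above all 4 at 46.0%. The mTEC-I libraries are shallower, at 6461587 tags in replicate 1 and 1702103.5 in replicate 2, which widens their spread. In mTEC-I replicate 2, 1 tag is a level of 5.88, and 1474 peaks stood at 0. This library also enters the spread behind the limma standard errors and p-values from all 8 libraries. These shares are a description, since mTEC-IV and mTEC-III levels had already chosen the peaks.

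The authors' own peak lists, made per population with both replicates combined, gave a coarser picture. The mTEC-IV list holds 22757 peaks over 47.9 Mb and the mTEC-III list 19320 peaks over 45.2 Mb. By an overlap of at least 1 base, 73.3% of mTEC-IV peaks and 85.3% of mTEC-III peaks were shared. Of merged peaks that came from the mTEC-IV list and not the mTEC-III list, 4294 of 5989 were called higher in mTEC-IV, and of those from the mTEC-III list and not the mTEC-IV list, 1648 of 2742 were called lower. Over all tested peaks, 22% were called higher and 13.3% lower. Lists and calls came from the same libraries, so such peaks were bound to lean to the side of their list. These counts are a description.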

How the data were processed

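The deposited values are H3K4me2 signal per merged peak, scaled by the authors to 10000000 tags a library. Per the file headers they came from HOMER's annotatePeaks on mm9; the submitters' processing notes name bcl2fastq 2.15.0.4 and Picard 1.108. Aligner, duplicate handling and IDR settings: not given in the sources used here. Peak lists of the authors give each peak a signal, a fold (ratio) over a control and a p-value; here the deposited fold ranked peaks within a list, and overlaps were made with bedtools 2.31.1.

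From this signal the 2 mitochondrial peaks were dropped. Peaks at 10 or more in at least 2 of the 8 H3K4me2 libraries were tested with limma 3.58.1 (R 4.3.3) on log2(value + 1), with trended variance and all 8 libraries in the fit, which left 4 residual degrees of freedom. Adding 1 understates the change of low peaks. Each peak went to the gene of its nearest start site, as the authors' table has it, and a gene's peaks were summed. Whole-cell extract samples, 8 in number, were not used here. The header totals allow tags to be recovered: to within 0.1 tags, 100% of values were multiples of 0.5 tags. These were rounded to whole tags for edgeR 4.0.16, DESeq2 1.42.0 and limma-voom, which are alternatives beside other scalings, pseudocounts, filters, left-out libraries, a replicate block and other gene assignments. On recovered tags, edgeR called 8302 peaks higher and 6526 lower. A level of 0 allows up to 3 tags, 3.30 and 3.58 in mTEC-IV and 3.78 and 3.53 in mTEC-III; floors and intervals cover counting error only. The fits were tested on simulated data with known changes. Simulated populations were alike except at a small share of features in mTEC-IV, unlike the data. Such a test cannot show how scaling bears on the counts called here.

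Replicates correlated across peaks at 0.974 in mTEC-IV and 0.972 in mTEC-III, and libraries of different populations at 0.693 to 0.707. Chi-square per peak between replicates was 1.07 in mTEC-IV and 1.24 in mTEC-III, against 1 for counting noise alone. The members and the 27 gene lists were chosen with earlier results of these data known. Genes named are list members, the 10 of largest change in each direction that were called without overlap at a level of at least 50, and those of the 4 peaks of smallest p-value in each direction; genes of neighbouring peaks and of opposite peaks were chosen after their values were seen. Some listed genes are not reported here by name.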

Additional observations from a re-analysis of the deposited data

How the results depend on the processing

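Of the counts called, those at peaks moved by more than 1.5 times with cyclic loess scaling (4247 higher) and, on the lower side, with edgeR (6526) and limma-voom (6552), and that of genes lower with equal totals in peaks (3028). With 1 library left out, which leaves a lone library assumed to vary like the others, peaks numbered 3430 to 4998 higher and 2179 to 2581 lower, genes 2081 to 2868 higher and 1161 to 1450 lower, tuft genes higher 70 to 72 and cornified genes lower 34 to 35. The share of the mTEC-IV list that was shared fell to 69.0% with an overlap of 50% of the shorter peak and 53.1% with the upper 50% of each list by fold, against 80.5% and 62.1% for the mTEC-III list. The remaining settings, among them DESeq2 (5856 peaks higher, 3395 lower) and leaving out both mTEC-I libraries (8751 and 5887), a choice made after seeing the data, stayed within 1.5 times of these counts. The cause of these moves was not tested, except that leaving out a library leaves fewer samples.

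Deviations of same-numbered mTEC-IV and mTEC-III libraries correlated at 0.016, and the 6 pairs of populations at -0.013 to 0.016. Replicates differed by little more than counting noise (chi-square per peak 1.07 in mTEC-IV and 1.24 in mTEC-III). These correlations therefore cannot show whether replicate numbers pair the samples. With a replicate block, 6372 peaks were higher and 3836 lower, and 3243 genes were higher and 1975 lower; of 362 named genes Tas2r119 and Tas2r143 lost their calls.

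Named genes whose direction turned did so with other gene assignments. With the strongest peak alone these were Pla2g4a (-0.54, limma adjusted p = 0.0213), Maf (-0.031, 0.812), Asprv1 (1.01, 0.00039), Cd80 (-0.51, 0.0143), Itga6 (-0.033, 0.857) and Col6a1 (-1.21, 0.00785). With peaks within 20 kb alone they were Epcam (-0.098, 0.463), Maf (-0.031, 0.809) and Col6a1 (-1.21, 0.0073). Of 362 named genes, 25 to 39 lost their calls with 1 library left out, 11 with DESeq2, 9 with equal totals, 8 with loess, 28 with the strongest peak and 14 within 20 kb, where 348 had a value, beside those whose direction turned. Low levels limit depth: 12 and 9 peaks stood at 0 in the mTEC-IV libraries, against 54 and 37 in the mTEC-III libraries.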
